A study of Sus scrofa with 6 samples.

Results

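Chemokines are small secreted proteins that guide leukocytes along gradients, and they act through receptors with 7 membrane-spanning helices that couple to inhibitory G proteins. In an injured vessel wall they are known for drawing monocytes, neutrophils and lymphocytes out of the blood, and for holding or releasing progenitor cells. The members described here are the receptors CCR1 and CXCR4 and the ligands CCL2, CCL21, CXCL8 and CXCL12. They were taken as all non-control probes of the array whose listed transcript is a pig RefSeq transcript of these genes, by name and not by any measured value. This gave 8 probes of 6 genes, among 43380 probes kept on the array and 2384 genes that could be named. CCR1 and CCL2 have 2 probes each and the other 4 genes have 1, and each probe was printed as a single spot.

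The samples were femoral arteries of pigs (Sus scrofa), collected ex vivo at the puncture site after a minimally invasive repair, all with a puncture on the left side. In 3 of them the puncture had been closed with TAG, the vascular glue under study, and in 3 with Exoseal, a marketed vascular closure device. The labels used here give no strain, age, sex or time after closure, and no unpunctured artery is among the samples. They also do not say that arteries treated alike were from different pigs, so the p-values reflect only how far these samples scatter, part of which may be technical. Exoseal replicate 1 is Exoseal by its title and source name and TAG by its treatment characteristic, so results are also given without it. By the slide and scan that the scanner files give, slide 1 held this array with the 3 of TAG, and slide 2 held Exoseal replicates 2 and 3. The sample description field speaks of human blood and was not used.

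Levels are given as the processed signal, the scanner software's background-subtracted brightness in arbitrary units, or as log2 of that signal relative to the 75th percentile of its array, here called the scaled log2 level. A probe counts as detected where the software flagged it as well above background. TAG arrays detected 37.4% ± 3.38 (SD, n = 3) of probes and Exoseal arrays 64.3% ± 5.70 (SD, n = 3). The lowest signal of a detected probe was 9.19 to 12.8 on the 4 arrays of slide 1 and 4.44 and 4.80 on slide 2. The 4 smooth muscle markers with a named probe were detected on every array, as an artery should have them.

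CCR1, a receptor for CCL3, CCL5 and related ligands on monocytes, macrophages and neutrophils, was the only member gene whose difference between the closures passed the test, and it was lower in TAG by both of its probes. The first probe, A_72_P232432, read a processed signal of 22.5, 21.0 and 15.1 on the TAG arrays and 1456, 4087 and 504 on Exoseal replicates 1, 2 and 3. It was detected on all 6 arrays, and every Exoseal array lay far above every TAG array. In TAG the signal lay above the lowest signal of any detected probe, 9.19 to 10.9 on these 3 arrays, with a scanner error of 3.05 to 4.06 on the spot. The scaled log2 level was -0.45 ± 0.22 (SD, n = 3) in TAG and 4.07 ± 0.91 (SD, n = 3) in Exoseal, a 22.9-fold difference. The log2 difference was -4.52 ± 0.53 (SE), with a 95% interval from -5.71 to -3.33 and an adjusted p of 0.0196 (limma, Benjamini-Hochberg over all probes tested). In arteries, as in any bulk sample, fewer cells carrying a transcript and less of it per cell cannot be told apart.

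The second CCR1 probe, A_72_P570289, gave the same order of groups. It read 12.1, 8.82 and 5.75 on the TAG arrays, none of them well above background, and 606, 3265 and 409 on Exoseal replicates 1, 2 and 3. Its TAG level is therefore only a bound, and the Exoseal mean was at least 26.8-fold higher than the lowest level the TAG arrays could detect, or the probe's own signal where that was higher. The scaled log2 means were -1.63 ± 0.11 in TAG and 3.44 ± 0.88 in Exoseal (SD, n = 3), and the adjusted p was 0.0196 (limma). Because this probe was undetected on every TAG array, it entered the test only through being detected in Exoseal. On both probes Exoseal replicate 2 was the highest array and Exoseal replicate 3 the lowest Exoseal array.

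**Figure D1:**
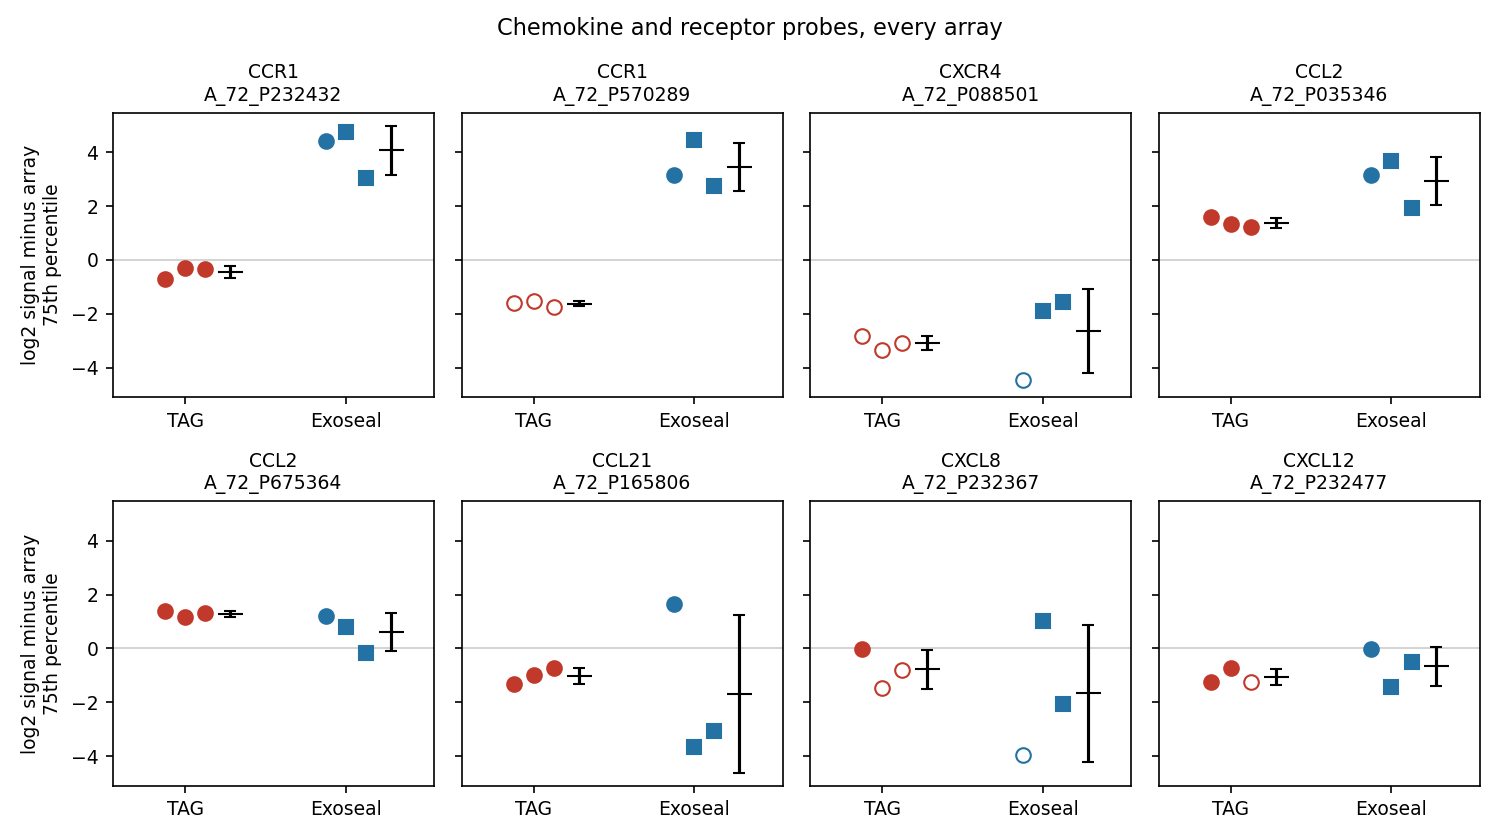
Scaled log2 level (log2 signal relative to the 75th percentile of its array) of the 8 chemokine and receptor probes on each array, TAG in red and Exoseal in blue, with the mean and SD of 3 arrays beside the points. Filled points are detected and open points are not, circles are slide 1 and squares slide 2. Both CCR1 probes separate the groups by over 4 log2 units, while CCL21 and CXCL8 spread over more than 5 log2 units within Exoseal.

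Of the 7 member probes tested, the 2 of CCR1 passed an adjusted p of 0.05, both lower in TAG. Both belong to the same transcript, and the second, also counted among the non-overlapping probes below, entered only through Exoseal. When only probes detected on all 6 arrays were tested, 1 of 4 member probes passed, against 2118 of 12887 probes. Over all 22720 probes tested 10.8% passed, 3.69% lower and 7.06% higher in TAG. Groups did not overlap on 3 of the 7 member probes, all 3 with TAG below Exoseal, against 36.4% of all probes, 16.2% with TAG below and 20.2% with TAG above. With the replicate number as a block the CCR1 differences kept their size at an adjusted p of 0.0530. With Exoseal replicate 1 counted as TAG the first probe had -3.14 and an adjusted p of 0.0704, and the second -4.02 and 0.0248. Against Exoseal replicate 1 alone, within slide 1, where that lone array is assumed to vary like the TAG arrays, the log2 difference was -4.86 for the first probe and -4.77 for the second, and without that array it was -4.35 and -5.22. Leaving out any 1 of the other 5 arrays put the adjusted p of both probes between 0.0507 and 0.120 (limma), at log2 differences from -5.42 to -4.18. No probe of the array, and so none of the genes named here, passed in limma when any 1 of those 5 arrays was left out or with the replicate block, where 4573 to 6426 and 6381 probes had an unadjusted p under 0.05.

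CCR1 lies in a cluster of chemokine receptor genes on the assembly, with CCR3 and CCR2 on one side and XCR1 and CXCR6 on the other, and none of these 4 passed. CCR2, the CCL2 receptor of classical monocytes, was detected on 1 of 3 TAG arrays and all 3 Exoseal arrays, with a log2 difference of -0.77 ± 0.45. XCR1, a dendritic cell receptor, and CXCR6, the receptor of CXCL16, were detected on all 6 arrays with -0.14 and 0.40. CCR3, the eotaxin receptor of eosinophils, was detected on no TAG array and on all 3 Exoseal arrays, where its levels ran from -4.13 to -0.47 and overlapped those of TAG. On Exoseal replicates 2 and 3 (-4.13 and -2.63) it lay below the lowest detected level of every TAG array (-1.74 to -1.07).

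CCR1's own ligands were measured too. CCL5, a T cell chemokine, had scaled log2 levels of -0.29, -0.91 and 0.64 in TAG and -1.12, -2.61 and -1.96 in Exoseal. Here every TAG array lay above every Exoseal array, at 1.71 ± 0.57 (adjusted p = 0.0791, limma), with 0.94 within slide 1. CCL5 passed without Exoseal replicate 1 (2.10, adjusted p = 0.00614) and with that array counted as TAG (1.86, adjusted p = 0.0444, limma). CCL3L1, a macrophage inflammatory protein, was detected on all 3 Exoseal arrays and on no TAG array, and its groups overlapped. On Exoseal replicates 2 and 3 (-2.33 and -1.84) it lay below the lowest detected level of every TAG array (-1.74 to -1.07).

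CXCR4, the receptor of CXCL12 on leukocytes and progenitor cells, was left out of the test by the detection filter. Its probe A_72_P088501 read 5.18, 2.53 and 2.29 on the TAG arrays, where it was not detected, and 3.12, 40.1 and 20.6 on Exoseal replicates 1, 2 and 3. It was detected on the 2 Exoseal arrays of slide 2 and on none of the 4 arrays of slide 1, whichever the closure. Scaled, the slide 2 values were -1.91 and -1.56, and the lowest detected levels of the TAG arrays were -1.74, -1.25 and -1.07, so that most TAG arrays could not have detected such a level. Slide and closure cannot be told apart for this split, since no TAG array was on slide 2.

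CXCL12, the homeostatic ligand of CXCR4 made by stromal cells, did not separate the groups. The probe A_72_P232477 read 15.5, 15.5 and 8.10 on the TAG arrays, the last of them not detected, and 67.3, 55.1 and 42.7 on the Exoseal arrays. After scaling the groups overlapped, with -1.23, -0.73 and -1.25 in TAG and -0.02, -1.45 and -0.51 in Exoseal. The log2 difference was -0.41 ± 0.49 (adjusted p = 0.617, limma), with a 95% interval from -1.51 to 0.70, which leaves room for a difference in either direction. Of 8 genes tested in a list of CXCL12 partners and regulators, 1 passed: HIF1A, the hypoxia-inducible factor, rose by 2.84 ± 0.48 in TAG (adjusted p = 0.0225, limma), though not with median scaling (2.38, adjusted p = 0.0623) or with Exoseal replicate 1 counted as TAG (1.66, adjusted p = 0.197). DPP4, the peptidase that trims CXCL12, had -2.00 ± 0.68 and was detected on 1 of 3 TAG arrays. The list's median log2 difference was 0.12, against 0.11 over 1619 named genes, of which 8.71% passed.

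CCL2, also called MCP-1, recruits monocytes through CCR2, and its 2 probes did not give the same answer. Probe A_72_P035346 read 109, 65.1 and 44.8 on the TAG arrays and 614, 1922 and 235 on the Exoseal arrays. Scaled, every Exoseal array (3.17, 3.67 and 1.95) lay above every TAG array (1.58, 1.34 and 1.22). The log2 difference was -1.55 ± 0.52, with a 95% interval from -2.72 to -0.37 for this probe alone and an adjusted p of 0.0824 (limma), so it did not pass. Without Exoseal replicate 1 it passed (-1.43, adjusted p = 0.0469, limma). Against that lone Exoseal array within slide 1 it was -1.79, with an adjusted p of 0.0420 when only slide 1 was fitted and of 0.0956 with slide as a block (limma).

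Probe A_72_P675364 of the same CCL2 transcript read 95.3, 58.2 and 47.5 on the TAG arrays and 156, 264 and 54.6 on the Exoseal arrays. Scaled, its levels were 1.39, 1.18 and 1.30 in TAG and 1.19, 0.81 and -0.16 in Exoseal, so that the groups overlapped and TAG had the higher mean. The log2 difference was 0.67 ± 0.47 (adjusted p = 0.368, limma; 95% interval from -0.39 to 1.74).

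Within an array, the gap between the CCL2 probes does not depend on the scaling. On TAG arrays the first probe exceeded the second by 0.19, 0.16 and -0.08 on the log2 scale, and on Exoseal arrays by 1.97, 2.86 and 2.10. The gap was thus close to 0 on each TAG array and about 2 or more on each Exoseal array. The means were 0.09 ± 0.15 and 2.31 ± 0.48 (SD, n = 3), and an exact permutation test (two-sided) returned p = 0.1, the smallest that 3 against 3 allows, or 0.2 adjusted over the 2 genes compared in this way. With this number of arrays the test could not pass, and the array does not say which probe follows the CCL2 transcript.

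For CCR1 the corresponding gap between the probes was 1.18 ± 0.26 in TAG and 0.63 ± 0.55 in Exoseal (SD, n = 3; exact two-sided permutation p = 0.3, adjusted 0.3), with the TAG side undetected by the second probe. Among 366 transcripts with exactly 2 tested probes, 230 had log2 differences of the same sign on both, and 50 (13.7%) had probes at least as far apart as those of CCL2.

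**Figure D2:**
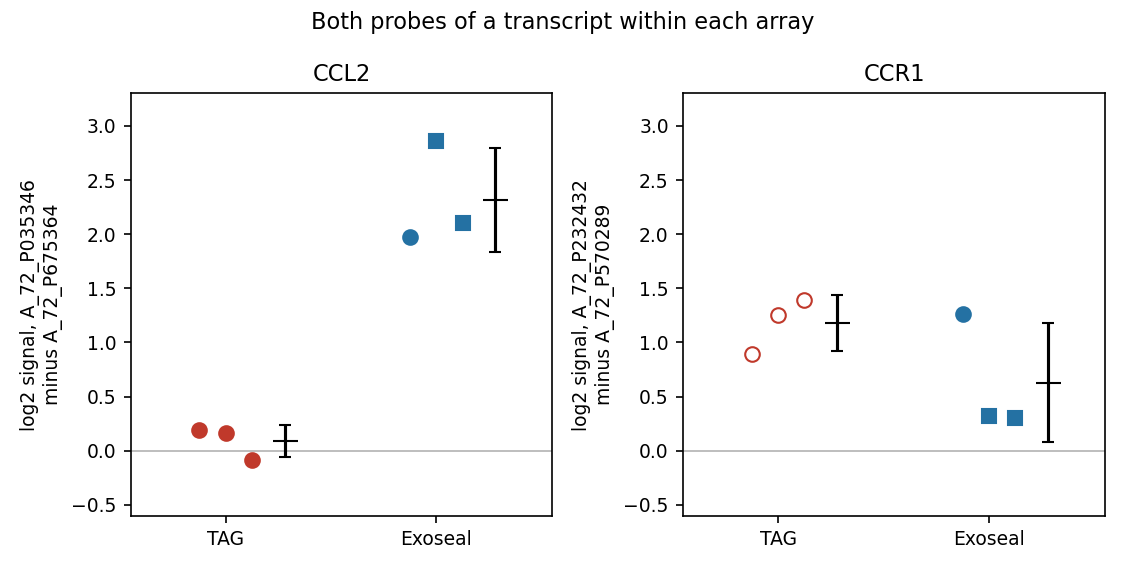
Log2 difference between the 2 probes of CCL2 and of CCR1 within each array, with the mean and SD of 3 arrays beside the points. Open points are arrays where at least 1 of the probes was not detected, circles are slide 1 and squares slide 2. The CCL2 gap lay between -0.08 and 0.19 on TAG arrays and between 1.97 and 2.86 on Exoseal arrays.

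CXCL8, also called interleukin-8, is the main neutrophil attractant of the family and varied more between the Exoseal arrays than between the groups. Probe A_72_P232367 read 35.7, 9.23 and 11.0 on the TAG arrays, with only the first detected, and 4.34, 308 and 14.4 on Exoseal replicates 1, 2 and 3, with the last pair detected. Exoseal thus held both the lowest and the highest array. The scaled log2 means were -0.77 ± 0.73 in TAG and -1.68 ± 2.53 in Exoseal (SD, n = 3), and the log2 difference of 0.90 ± 1.07 did not pass (adjusted p = 0.611, limma; 95% interval from -1.51 to 3.32). Its sign rested on Exoseal replicate 1: it was 3.21 against that lone Exoseal array within slide 1, and -0.25 without that array. Within slide 1 only TAG replicate 1 was detected. The level of Exoseal replicate 1, -3.98, lay below the lowest detected level of its array, -2.42, so the size of 3.21 was not measured.

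CXCL2, another neutrophil chemokine, was detected on all 6 arrays and had -0.20 ± 0.58. AMCF-II, a CXCL8-like pig chemokine that lies beside CXCL8 on the assembly, was detected on no TAG array and on 2 Exoseal arrays and was not tested. Of 15 tested genes of NF-kappaB signalling and its inducers, the pathway that drives CXCL8 and CCL2 in many cells, 1 passed, against 8.71% of all named genes. That was TLR4, the endotoxin receptor, at 1.49 ± 0.41 (adjusted p = 0.0498, limma), detected on 1 TAG array and 2 Exoseal arrays, and it did not pass with quantile, median or normexp scaling (1.15, 1.03 and 0.19). Nor did it with Exoseal replicate 1 counted as TAG (1.08) or with slide as a block (1.54). The 1 other TLR4 probe tested had the opposite sign. IL1B, a cytokine that induces both chemokines, had -1.63 ± 0.70, and NFKBIA, the inhibitor of NF-kappaB, 1.45 ± 0.55, neither passing. The list's median was 0.02, and -0.85 within slide 1.

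CCL21, which leads T cells and dendritic cells along lymphatic vessels through CCR7, was split within Exoseal. Probe A_72_P165806 read 14.5, 13.0 and 11.5 on the TAG arrays and 216, 11.8 and 7.19 on Exoseal replicates 1, 2 and 3, and was detected on all 6. The TAG signals lay close to the lowest detected signals of their arrays, 9.19 to 10.9. Before scaling, Exoseal replicate 2 lay within the TAG range and only Exoseal replicate 3 below it. After scaling, Exoseal replicate 1 stood above every TAG array, at 1.66 against -1.32 to -0.74. Exoseal replicates 2 and 3 then stood below, at -3.67 and -3.08. The 3 TAG arrays lay within 0.58 of each other, and the Exoseal arrays spanned 5.33. The log2 difference of 0.68 ± 1.18 (adjusted p = 0.739, limma, with a 95% interval from -1.98 to 3.34) was therefore a mean over Exoseal arrays that lay, once scaled, on opposite sides of TAG. It was 2.36 without Exoseal replicate 1 (adjusted p = 0.00125, limma) and -2.68 within slide 1, where that array is the only Exoseal array and its own spread is unknown (adjusted p = 0.0298, limma).

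The same split, with Exoseal replicate 1 above and Exoseal replicates 2 and 3 below every TAG array, was seen for CCL27 and CCR3 among 24 chemokine ligand and receptor genes tested, for 6.36% of all probes tested and for 10.5% of the dimmest 4544 of them. The opposite split was seen for 3.54% of all probes. This count was made after the CCL21 values were seen. CCL19, the other CCR7 ligand and CCL21's neighbour on the assembly, had 0.88 ± 0.48 and did not show it, with -0.09, -1.32 and -0.82 in Exoseal. CCR7 itself was detected on no TAG array and on all 3 Exoseal arrays, at levels from -3.60 to -0.84. On Exoseal replicates 2 and 3 it lay at -3.60 and -2.65, below the lowest detected level of every TAG array (-1.74 to -1.07). In the list of lymphatic and CCL21-related genes 0 of 3 tested genes passed in limma, where none had an unadjusted p under 0.05, with LTA, lymphotoxin alpha, at 0.69 ± 0.46. The lymphatic transcription factor PROX1 was detected on 1 of 6 arrays.

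**Figure D3:**
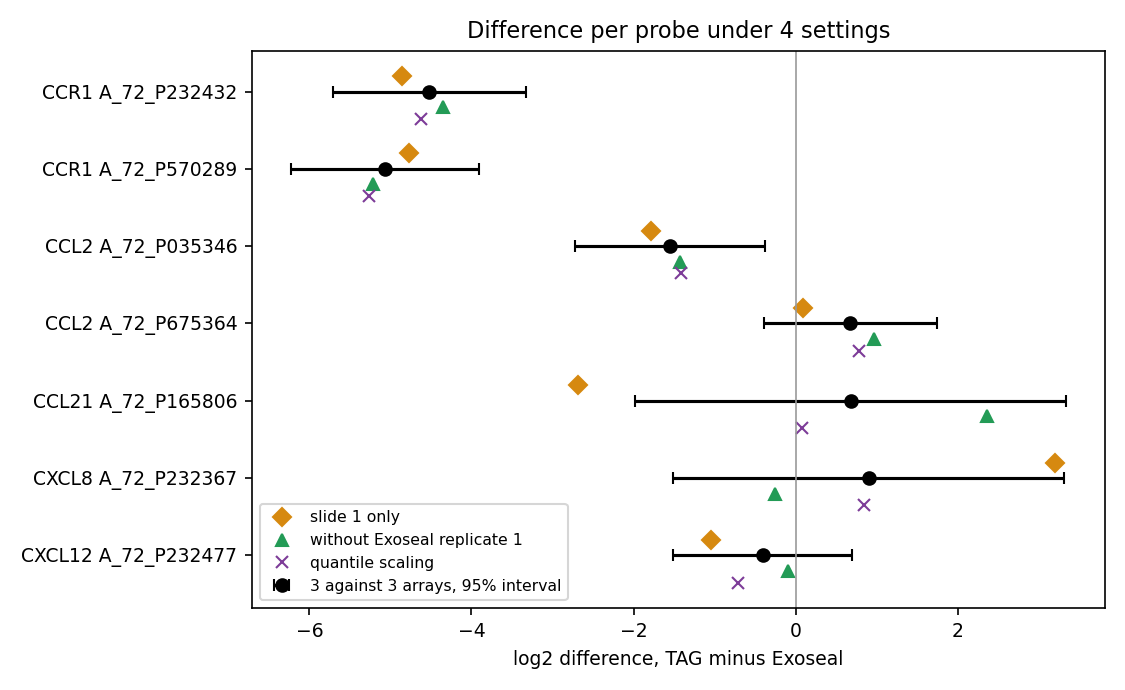
Log2 difference, TAG minus Exoseal, of the 7 member probes tested, with the 95% interval of the fit on 3 against 3 arrays in black and the value under 3 other settings in colour. The CCR1 values lie together under all 4 settings, and those of CCL21 and CXCL8 change sign with Exoseal replicate 1.

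In the wider family 1 of 16 tested ligands and 1 of 8 tested receptors passed, both lower in TAG, where 3.03% of the named genes were lower and 5.68% higher. The ligand was CXCL10, an interferon-induced attractant of activated T cells, which had scaled log2 levels of 3.72, 2.30 and 2.70 in TAG and 4.79, 4.91 and 4.72 in Exoseal. It fell by 1.90 ± 0.48 in TAG (adjusted p = 0.0403, limma), and did not pass with the percentile taken over always-detected probes (-1.77, adjusted p = 0.0559). Nor did it pass with Exoseal replicate 1 counted as TAG (-1.44, adjusted p = 0.149), with slide as a block (-1.89, adjusted p = 0.0711) or within slide 1 (adjusted p = 0.0829, limma). Its relative CXCL9 had -0.49 ± 0.59. CXCL16, a membrane-bound chemokine and scavenger receptor of macrophages, had -1.44 ± 0.45 with groups that did not overlap (adjusted p = 0.0680), and CCL4, a macrophage inflammatory protein, 2.08 ± 0.76 with groups that did. CCL4 was detected on only 1 TAG array and 2 Exoseal arrays. It passed without Exoseal replicate 1 (2.83, adjusted p = 0.00167) and with that array counted as TAG (2.68, adjusted p = 0.0109, limma). Without that array CCL4 was detected only on TAG replicate 3 and Exoseal replicate 2. The sizes of 2.83 and 2.68 thus rest in part on undetected values. CCL4 had 0.27 with normexp and 0.59 within slide 1. The median log2 difference was 0.06 for ligands (-1.05 within slide 1) and -0.36 for receptors (-0.60), and over the named genes 0.11 (-0.16). On TAG arrays 11 to 14 of the 23 ligands on the array were detected and 5 or 6 of the 12 receptors, and on Exoseal arrays 15 to 19 and 9 or 10. Over all probes the detected share was likewise lower in TAG, 37.4% against 64.3% in Exoseal. In a list of the signalling chain below the receptors, 2 of 9 tested genes passed. GNAI3, an inhibitory G protein subunit, rose by 1.59 ± 0.43 in TAG (adjusted p = 0.0471, limma), though not with median scaling (1.13), and PIK3R5, a regulatory subunit of the PI3-kinase that G proteins switch on in leukocytes, was at least 3.24-fold higher in Exoseal (adjusted p = 0.0244, limma), though with normexp it did not pass (-1.08). PIK3R5 was detected on no TAG array and so entered the test only through Exoseal. GNAI3 also did not pass with Exoseal replicate 1 counted as TAG (1.43) or with slide as a block (1.28).

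**Figure D4:**
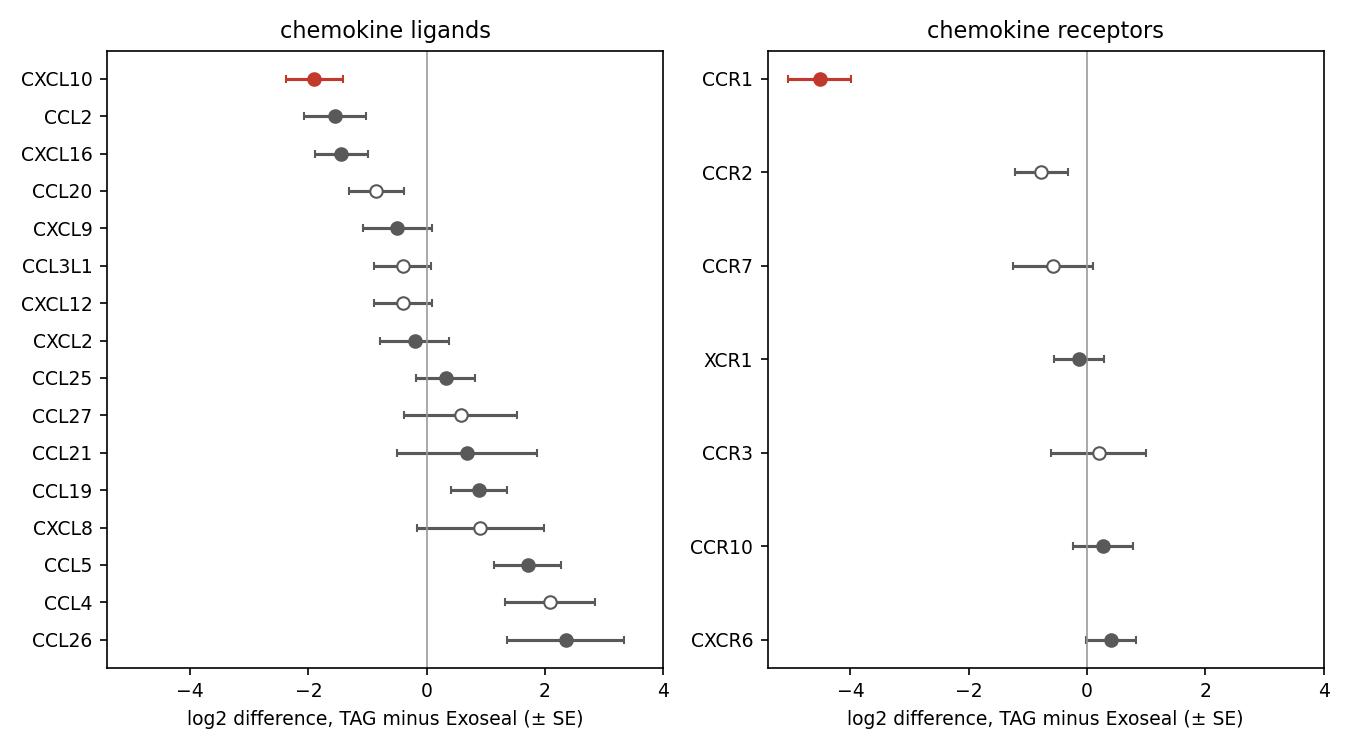
Log2 difference, TAG minus Exoseal, with its SE for 16 chemokine ligands and 7 chemokine receptors, each by its brightest tested probe on 3 against 3 arrays. Red points passed an adjusted p of 0.05 and open points were not detected on all 3 TAG arrays. CXCL10 and CCR1 are the 2 that passed, and CCL2 is shown by the probe with the negative difference.

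Markers of the leukocytes that carry CCR1 moved with it in part. Of 8 tested macrophage and monocyte genes 3 fell in TAG, where 3.03% of all named genes did, namely LYZ (lysozyme, -3.64 ± 0.66), AIF1 (-1.80 ± 0.44) and CD86 (-1.92 ± 0.52, detected on 1 of 3 TAG arrays), while C1QA, FCER1G, TYROBP, CD14 and CD163 did not pass and had values from -0.43 to 0.68. TYROBP was detected on no TAG array and CD14 on 1, and both on all 3 Exoseal arrays, so that their differences rest on undetected TAG values. CD86 did not pass with the percentile taken over always-detected probes (-1.78) or with normexp (-0.78). Within slide 1 LYZ did not pass (-3.11, adjusted p = 0.0556, limma). The mean scaled log2 level over the 8 genes was 0.40 to 0.53 on TAG arrays, where 5 to 7 of them were detected. It was 1.04 to 1.74 on Exoseal arrays, where all 8 were. Of 4 tested neutrophil genes 2 fell, MMP9 (-2.58 ± 0.50) and ARG1 (arginase 1, at least 3.51-fold higher in Exoseal), and ARG1 was detected on no TAG array, so that it entered the test only through Exoseal. S100A12 (1.72 ± 0.57, groups not overlapping) and S100A8 (0.38 ± 0.42) went the other way, with higher means in TAG, and did not pass. S100A12 was detected on 2 TAG arrays and S100A8 on 1, and both on all 3 Exoseal arrays. Their TAG means thus rest in part on undetected values. S100A9 and LTF were not tested, being detected on no TAG array and on 1 and 2 Exoseal arrays. With normexp ARG1 did not pass (-1.13). With Exoseal replicate 1 counted as TAG, LYZ passed (-3.13), but AIF1 (-1.12, adjusted p = 0.257), CD86 (-0.69, adjusted p = 0.560), MMP9 (-1.50, adjusted p = 0.227) and ARG1 (-1.91, adjusted p = 0.249) did not (limma). The 7 neutrophil genes on the array averaged -1.94 to -1.68 on TAG arrays and -2.05 to -0.62 on Exoseal arrays. Only 1 to 3 of them were detected on a TAG array and 5 or 6 on an Exoseal array. None of 5 tested T and NK cell genes passed in limma, where 2 had an unadjusted p under 0.05 (GZMB, granzyme B, at -1.28 and detected on no TAG array, and CD8A at 1.05, each with its 1 other tested probe of the opposite sign), CD4 was detected on no array, and the 10 genes on the array averaged -2.06 to -1.78 in TAG and -3.45 to -1.03 in Exoseal. Only 2 or 3 of these 10 genes were detected on a TAG array and 6 to 8 on an Exoseal array. The neutrophil and the T and NK cell averages in TAG are thus mostly of undetected values. The part of all these leukocytes in the CCR1 and CXCL10 values was not tested.

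Among 1618 other named genes, likeness was measured as the mean absolute difference between log2 profiles centred over the 6 arrays. Nearest to CCR1 were ACP5 (0.36), HMOX1 (0.52) and ARG1 (0.55), where the median gene was 2.32 away. Nearest to the brighter CCL2 probe were BCL2A1 (0.17), BTG3 (0.18) and TPRKB (0.21), against a median of 0.97. CCL21 lay closest to CEND1 (0.12), IRGC (0.19) and DLX5 (0.36), against 1.34. CXCL8 had no neighbour under 0.6, with SELE at 0.63 and PALMD at 0.68, against 1.46. CXCL12 lay closest to GPAT4 (0.12), SH2D1A (0.14) and ROMO1 (0.15), but its flat profile was near many genes, with a median of 0.64.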

How the data were processed

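Amplified RNA carrying Cy3 was hybridised to Agilent arrays in 1 colour, per the labels' protocols. Per the file headers, the deposited intensity values come from Agilent Feature Extraction 11.0.1.1, which subtracted background within each array and did not scale between arrays. The deposited table of the whole series is on a log2 scale with a shared distribution over the arrays, judged from its values, and its software was not given in the sources used here.

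Control spots were left out, as were 223 of 43603 probes with outlier flags on all their spots of some array. Levels are log2 processed signal relative to the array's 75th percentile. Probes were named through unversioned RefSeq accessions of assembly Sscrofa11.1, used for names and gene order, which named 5435 of 43380 probes. No sequences or coordinates were used here. Probes detected on at least 3 of 6 arrays, 22720 in all, were each fitted by lmFit and eBayes of limma 3.58.1 (R 4.3.3, without covariates, two-sided p), Benjamini-Hochberg adjusted over all of them at a threshold of 0.05. The fit was tested on simulated data. List genes stand by their brightest tested probe. A bound sets the brighter group's mean against a mean over the dimmer group's arrays, each taken at its lowest detected signal or at the probe's own, whichever is higher. Normexp (offset 50) used the median spot signal. Named genes were the members, the ligands and receptors past the threshold with the next 4 by p, up to 3 past the threshold of each other list or else the 2 smallest p, and 3 nearest profiles per member, and genes outside this rule (CCR2, CCR3, CCR7, CCL27, CXCR6, XCR1, CCL3L1, CXCL2, CXCL9, AMCF-II, DPP4, IL1B, NFKBIA, PROX1 and the marker genes that did not pass) are named for their place in the pathway or the genome, with their values known. Members and lists were chosen with earlier results of these data known. Some genes that the rule names are not reported here. Precision is limited by having 3 arrays a group.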

Additional observations from a re-analysis of the deposited data

How the results depend on the processing

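Over all probes tested, 2443 passed (1604 higher and 839 lower in TAG), with 1629 higher and 1523 lower under quantile scaling, 1702 and 1216 in the authors' deposited values, 492 and 557 with median scaling (1049 in all), 1028 and 574 with normexp (1602) and 3788 with Exoseal replicate 1 counted as TAG. With no filter on dim probes 0 of 43380 passed (14128 at an unadjusted p under 0.05). Leaving out 1 array gave 0 to 7715, with 0 for each of 5 arrays (4573 to 6426 at an unadjusted p under 0.05) and 7715 without Exoseal replicate 1. The median log2 difference of all probes tested was 0.08, and -0.05, -0.39 and 0.21 with quantile scaling, median scaling and the percentile over always-detected probes.

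Member probes past the threshold numbered 2, and 0 with no filter, 1 when only probes detected on all 6 arrays or only the brightest probe of a gene were tested, both of which leave out the second CCR1 probe, 4 with slide as a block, 5 within slide 1, and 0 to 4 when 1 array was left out. Where the count was 0, 2 to 4 member probes had an unadjusted p under 0.05. Both CCR1 probes stayed lower in TAG under every setting, from -5.53 to -3.01. With the replicate number as a block, 0 of all probes and 0 of the member probes passed in limma (6381 and 3 at an unadjusted p under 0.05). Deviations of same-numbered arrays correlated at -0.18, 0.09 and -0.07, and those of differently numbered arrays at -0.17 to 0.21. As each is a deviation from a mean of 3 arrays, these values cannot decide whether same-numbered samples share a pig or session. The labels do not say either.

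CCL21 turned negative with normexp (-0.27), with slide as a block and within slide 1 (-2.68 each), and without Exoseal replicate 2 (-0.31) or 3 (-0.01), in a range from -0.31 to 2.36 when 1 array was left out. CXCL8 turned negative with Exoseal replicate 1 as TAG (-1.05) or left out (-0.25, in a range from -0.25 to 2.26), and CXCL12 positive with that array as TAG (0.17). Among markers that did not pass, DCN had 0.91 and turned to -0.11, -0.024 and -0.13 with quantile scaling, normexp and the authors' deposited values, FABP4 had -0.16 and turned to 0.13 with Exoseal replicate 1 as TAG and to 0.0087 without it (-0.30 to 0.0087 when 1 array was left out), and THY1 had -0.09 and turned to 0.042 with the percentile over always-detected probes and to 1.34 with Exoseal replicate 1 as TAG (-1.14 to 0.84 when 1 array was left out). Here the cause was not tested.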

Other observations

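Further markers of the artery and its surroundings were read with the same fit, where 5.68% of the 1619 named genes passed higher in TAG and 3.03% lower. Of 4 tested smooth muscle genes 2 rose in TAG, ACTA2 (smooth muscle actin) by 2.22 ± 0.43 and DES (desmin) by 1.52 ± 0.39, and of 11 skeletal muscle genes ACTA1 (skeletal actin) rose by 2.48 ± 0.40, where 8 of its 15 other tested probes had the same sign. None of these 3 passed with median scaling (1.76, 1.06 and 2.02) or with Exoseal replicate 1 counted as TAG (1.92, 1.16 and 1.70), and DES did not with quantile scaling (0.75) or in the authors' deposited values (0.73). Of the other smooth muscle genes MYLK had -1.37 ± 0.56 and CNN1 0.73 ± 0.40, and neither passed. CDH5 (VE-cadherin) was the 1 of 4 endothelial genes that fell in TAG (-2.47 ± 0.56). It did not pass with median scaling (-2.94), normexp (-2.20) or slide as a block (-1.49). Of the others PECAM1 had -1.57, NOS3 -0.52 and ENG 0.84. PECAM1 and NOS3 each had 1 other tested probe, which was of the opposite sign. GP9, a platelet glycoprotein, was the 1 of 2 blood genes that rose, by 2.33 ± 0.60. It did not pass with median scaling (1.86) or normexp (0.64), and had 1.06 within slide 1. ITGA2B, the other blood gene, had -0.29 ± 0.40 with groups that did not overlap. None of 2 fibroblast genes (DCN 0.91, THY1 -0.09) and none of 3 fat cell genes (LPL -0.79, FABP4 -0.16) passed in limma, where DCN alone had an unadjusted p under 0.05. THY1 was detected on no TAG array and on all 3 Exoseal arrays, so that it entered the test only through Exoseal. No B cell gene was tested.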
